A study of Mus musculus with 6 samples.

Results

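Zfp54, Zfp51, Zfp53, Zfp52 and Zfp948 are 5 KRAB zinc finger genes that stand next to each other on mouse chromosome 17. They were taken by symbol from the 37991 genes of the deposited count table, and were chosen by their level in these 6 libraries, by label and by the level of Trim28, where some of them ran opposite to Trim28, the mRNA of KAP1, by several-fold and others did not. RNA had been sequenced from regulatory T cells (Treg), the T cells that restrain immune responses, sorted from spleen as YFP+ cells after CD4 isolation. Per the labels, 3 libraries came from KAP1 deficient Treg and 3 from wild type, KAP1 sufficient Treg. They are called deficient 1 to 3 and sufficient 1 to 3 here, as labelled. The labels give the strain background as C57BL/6 for deficient 1 and the 3 sufficient libraries, as C57BL/7 for deficient 2 and as C57BL/8 for deficient 3. Whether these name different strains or are an error in filling in the labels cannot be told from them. The ages of the mice, the promoter that drives the YFP, and how KAP1 was removed are not stated in the labels. Nothing there says which libraries came from separate animals, so any spread between replicates may be technical.

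KRAB zinc finger proteins bind DNA through an array of zinc fingers. Their KRAB domain brings in KAP1, the product of Trim28, which in turn brings SETDB1, the enzyme that methylates histone H3 at lysine 9, and silences the bound sequence. Transposons are the best known targets. The genes themselves lie in tandem clusters that grew by duplication, and KAP1 and methylated histone H3 are known from human cells to sit on many of these genes too. Zfp53 is also known as KRAZ1, a KRAB protein that represses transcription through KAP1 in reporter assays.

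Trim28 mRNA went against the label in 2 libraries, which bears on every comparison by label. It stood at 23.0, 18.6 and 231 CPM (a count relative to the total of its library) in deficient 1, 2 and 3, against 244, 244 and 21.2 CPM in sufficient 1, 2 and 3. The library labelled deficient 3 thus held the level of sufficient 1 and 2, and the library labelled sufficient 3 the level of deficient 1 and 2. Each comparison is therefore given over all 6 libraries by label and again over the 4 libraries with replicate numbers 1 and 2. Those 4 were chosen by the measured Trim28 level, so the adjusted p-values from them depend on that choice. Totals were 9954344 to 10994745 counts in the deficient libraries and 10103117 to 10300626 in the sufficient ones. At these depths 3 counts, the limit that a count of 0 allows, equal 0.273 to 0.301 CPM, and this limit covers counting error only. No member fell below 126 counts in any library. Treg markers were present throughout, with a summed level of 4380 to 4510 CPM for 7 markers in the deficient libraries and 4280 to 4550 CPM in the sufficient ones. Markers of other cell types were partly present. Of the CD8 T cell markers Cd8a had at most 5 counts, but Cd8b1 had 102 to 148. The 4 B cell markers summed to 529, 534 and 584 CPM in deficient 1, 2 and 3, against 617, 669 and 566 CPM in sufficient 1, 2 and 3, nearly all of it Ighm, while Ms4a1 had at most 1 count. The 2 stromal and endothelial markers summed to 224, 209 and 226 CPM in the deficient and 240, 247 and 199 CPM in the sufficient libraries, nearly all of it Pecam1, while Col1a1 had at most 16 counts. The 4 myeloid and the 2 erythroid markers had at most 4 and 1 counts each. Libraries also differed as wholes. In a chi-square comparison over genes, the most alike pair was deficient 1 and sufficient 3, across the labels, at 2.43 per degree of freedom. Deficient 3 was at 7.22 to 8.65 from all the others, and nearest to sufficient 1 (7.22) and 2 (7.64), whose Trim28 level it held. Those were closer to each other, at 2.81. Larger distances, 11.5 to 13.4, lay between sufficient 1 and 2 on one side and deficient 1, deficient 2 and sufficient 3 on the other. Mitochondrial genes took 1.34%, 1.33% and 1.61% of counts in deficient 1, 2 and 3, against 1.92%, 2.1% and 1.41% in sufficient 1, 2 and 3.

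The members lie within 165473 bp, all on the + strand (mm10). From left to right the order is Zfp54 (ENSMUSG00000023882, chr17:21423227-21435640), Zfp51 (ENSMUSG00000023892, chr17:21450374-21465587), Zfp53 (ENSMUSG00000057409, chr17:21488998-21510473), Zfp52 (ENSMUSG00000051341, chr17:21535539-21562601) and Zfp948 (ENSMUSG00000067931, chr17:21567008-21588699). The gaps between neighbours were 14733, 23410, 25065 and 4406 bp in that order. The coding sequences are alike, at 76.9% to 85.4% identical bases in pairwise alignments. The most alike pair was Zfp51 and Zfp53, with 1639 identical of 1920 aligned bases. Stretches that occur unchanged in another gene were rare. At 50 bases the share was 0.497% for Zfp53, 0.869% for Zfp52, 0.115% for Zfp948, 2.85% for Zfp51 and 5.32% for Zfp54. Only exact matches were counted, so how often reads were placed in the wrong gene was not measured. At 100 bases the share was 0 for 4 members and 3.01% for Zfp54, through Gm49691, which overlaps 210 of its exon bases on the other strand. The kit does not mark strand, so reads of Zfp54 and Gm49691 cannot be told apart in that stretch.

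The promoters are shown because the members are related in sequence, so that their start regions can be set side by side. RefSeq (GRCm38.p6) gave a promoter, 250 bases before to 50 after the start, for 4 of the 5 members, and Zfp51 had no entry. Each is written 5′ to 3′ on the + strand. The windows are chr17:21488738-21489037 for Zfp53, chr17:21535289-21535588 for Zfp52, chr17:21566728-21567027 for Zfp948 and chr17:21422977-21423276 for Zfp54. Capitals mark GAAGCCTGAGAC, the longest run shared by Zfp53, Zfp52 and Zfp948, and in Zfp54 the part of it that is kept, AGCCTGAGAC.
Zfp53 promoter: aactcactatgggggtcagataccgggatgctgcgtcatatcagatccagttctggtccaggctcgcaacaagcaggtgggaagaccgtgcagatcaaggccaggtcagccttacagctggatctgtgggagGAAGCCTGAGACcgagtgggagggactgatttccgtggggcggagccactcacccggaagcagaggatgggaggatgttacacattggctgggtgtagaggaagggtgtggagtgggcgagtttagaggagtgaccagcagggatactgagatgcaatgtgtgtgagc
Zfp52 promoter: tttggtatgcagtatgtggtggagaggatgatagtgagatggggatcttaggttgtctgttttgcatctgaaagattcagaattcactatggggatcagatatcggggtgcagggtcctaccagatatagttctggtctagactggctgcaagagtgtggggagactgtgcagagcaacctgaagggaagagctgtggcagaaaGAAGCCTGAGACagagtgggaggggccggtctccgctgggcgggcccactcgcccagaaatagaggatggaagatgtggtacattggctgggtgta
Zfp948 promoter: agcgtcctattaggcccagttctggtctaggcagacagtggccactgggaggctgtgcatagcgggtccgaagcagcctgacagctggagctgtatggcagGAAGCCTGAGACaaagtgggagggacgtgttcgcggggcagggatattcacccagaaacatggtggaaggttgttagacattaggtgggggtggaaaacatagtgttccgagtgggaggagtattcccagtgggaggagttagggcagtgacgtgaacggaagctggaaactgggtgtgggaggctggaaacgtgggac
Zfp54 promoter: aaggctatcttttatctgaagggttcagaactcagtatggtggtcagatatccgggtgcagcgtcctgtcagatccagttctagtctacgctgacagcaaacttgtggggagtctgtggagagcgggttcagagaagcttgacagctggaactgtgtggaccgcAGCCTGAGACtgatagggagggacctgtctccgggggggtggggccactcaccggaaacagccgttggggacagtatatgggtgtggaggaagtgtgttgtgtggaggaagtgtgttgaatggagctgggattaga

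All 4 promoters held AGCCTGAGAC, and Zfp53, Zfp52 and Zfp948 held it within GAAGCCTGAGAC. Searched on both strands, GAAGCCTGAGAC occurred in the promoters of 6 of 27025 genes (0.0222%), the 3 others being Gm9376, H1f2 and Igf2. The shorter AGCCTGAGAC, which lies inside it, occurred in 49 genes (0.181%), and neither run was in any of the 32 other Zfp promoters of chromosome 17. A 16-base run, ACATTGGCTGGGTGTA, was shared by Zfp53 and Zfp52 and by no other gene in the table. TCAGATCCAGTTCT was likewise shared by Zfp54 and Zfp53 only. The capitals began 118 bases before the start in Zfp53, 46 before it in Zfp52, 149 before it in Zfp948 and 86 before it in Zfp54. By percent identity the most alike promoters were those of Zfp53 and Zfp52, at 78.8% (171 of 217 aligned bases), followed by Zfp54 and Zfp52 at 74.8% and Zfp54 and Zfp53 at 74.3% (200 of 269). Likeness was not confined to the members. By count of identical bases, the promoter of Zfp983, outside the cluster, had 193 with that of Zfp53 and 197 with that of Zfp948. By the same count the most for Zfp53 among members was 200, with Zfp54. For Zfp948 the most was 189, with Zfp53, which is fewer than with Zfp983. GC content was 57.0% in Zfp53, 52.3% in Zfp52, 57.0% in Zfp948 and 54.3% in Zfp54, beside a median of 52.7% over all promoters. These matches are descriptions of sequence and show no binding. The longest run of Zfp53, Zfp52 and Zfp948 was sought in the 3 members found several-fold higher below. These members are also 3 of the 6 genes that hold it. Its rarity therefore cannot show a link between the run and their levels.

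Zfp53, Zfp52 and Zfp948, the 3 rightmost genes, were several-fold higher in deficient 1 and 2 than in sufficient 1 and 2, while Zfp54 and Zfp51 stayed near their level. The mitochondrial share and the summed B cell and stromal markers given above were lower in the libraries where these 3 genes were high, and their part in the result was not tested. Zfp53 was the most abundant member. It stood at 314, 314 and 88.8 CPM in deficient 1, 2 and 3, against 84.3, 87.5 and 308 CPM in sufficient 1, 2 and 3. Each label group therefore had both levels, and the groups overlapped. Over the 4 libraries the log2 fold change was 1.88 ± 0.05 (SE, 2 libraries a group), or 3.67-fold. Over all 6 libraries by label it was 0.58 ± 0.83 (SE, n = 3 a group), with means of 239 ± 130 CPM in deficient and 160 ± 128 CPM in sufficient libraries (SD).

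Zfp948, at the right end of the cluster, had the same profile at a lower level. It stood at 49.1, 48.7 and 13.0 CPM in deficient 1, 2 and 3, against 12.5, 13.1 and 43.9 CPM in sufficient 1, 2 and 3. Deficient 3 sat with sufficient 1 and 2, and sufficient 3 sat a little below deficient 1 and 2. The log2 fold change of Zfp948 over the 4 libraries was 1.94 ± 0.10 (SE), or 3.84-fold, and over all 6 by label it was 0.67 ± 0.82, with means of 36.9 ± 20.7 CPM in deficient and 23.1 ± 18.0 CPM in sufficient libraries (SD, n = 3 each).

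Zfp52, which lies between those genes, moved less. It stood at 120, 112 and 43.7 CPM in deficient 1, 2 and 3, against 37.7, 41.8 and 104 CPM in sufficient 1, 2 and 3. The libraries fell into the same high and low sets as for its neighbours. Its log2 fold change over the 4 libraries was 1.55 ± 0.08 (SE), or 2.94-fold, and over all 6 by label it was 0.58 ± 0.64, with means of 92.0 ± 42.0 CPM in deficient and 61.3 ± 37.4 CPM in sufficient libraries (SD, n = 3 each). Zfp52 shares 11 exon bases with 9330136K24Rik, a long noncoding gene on the other strand, for which the authors' deposited table gives a log2 fold change of -0.35 ± 0.13 (SE), negative meaning lower in sufficient cells.

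Zfp54, at the left end, had 17.5, 19.6 and 14.7 CPM in deficient 1, 2 and 3, against 16.1, 16.6 and 22.6 CPM in sufficient 1, 2 and 3. The label groups overlapped, and its highest value was in sufficient 3. Its log2 fold change was 0.18 ± 0.12 (SE) over the 4 libraries and -0.10 ± 0.16 over all 6 by label, so the sign depended on the replicate 3 libraries.

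Zfp51 had 43.2, 41.5 and 46.9 CPM in deficient 1, 2 and 3, against 50.4, 52.6 and 48.5 CPM in sufficient 1, 2 and 3. It was the one member whose label groups did not overlap, with every deficient library below every sufficient one. Over all genes tested, 6.05% had no overlap in that direction. The nearest levels were those of deficient 3 (516 counts) and sufficient 3 (500 counts), the libraries whose Trim28 went against the label. Counting error alone could close a gap that small. The log2 fold change was -0.21 ± 0.07 (SE) over all 6 libraries by label and -0.28 ± 0.08 over the 4, or 0.826-fold.

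**Figure D1:**
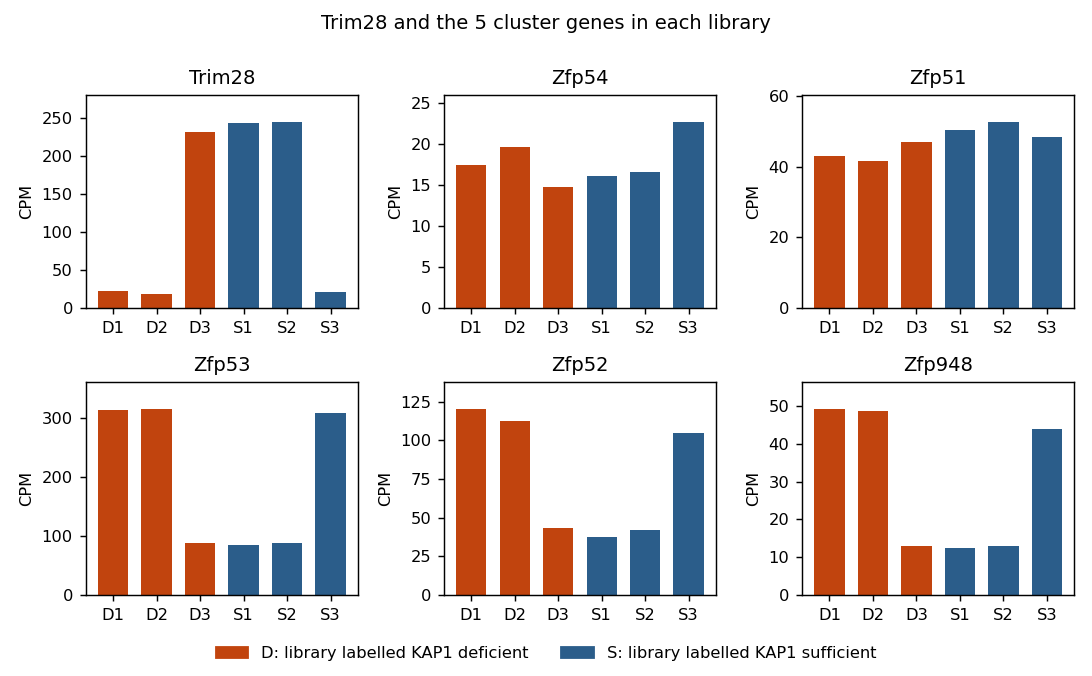
Bars give the CPM of Trim28 and of each member in each library, with a linear axis from 0 in each panel, libraries labelled deficient (D1 to D3) left of those labelled sufficient (S1 to S3). Zfp53, Zfp52 and Zfp948 have a high and a low set in both label groups, at 308 to 314 and 84.3 to 88.8 CPM for Zfp53, while Zfp54 and Zfp51 stay within 14.7 to 22.6 and 41.5 to 52.6 CPM.

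Counts of members past a threshold, and the median of the members, are given with their background and read no further. These same values chose the members. Over the 4 libraries, 4 members had deficient levels above sufficient ones without overlap, beside 28.6% of the 12183 genes tested, and Zfp51 was lower without overlap, beside 29.4%. The median log2 fold change of the 5 members was 1.55, against -0.002 over all genes tested, and over all 6 libraries by label it was 0.58 against -0.004. Set out by Trim28 level, the libraries with little Trim28 (deficient 1 and 2, sufficient 3) had 1.05 to 1.54 times the Zfp54 level of those with more (deficient 3, sufficient 1 and 2). For Zfp53 that ratio, taken over every pair of libraries, was 3.47 to 3.73, for Zfp52 2.39 to 3.18 and for Zfp948 3.36 to 3.94. These 4 members did not overlap between the low and the high Trim28 libraries, beside 11.9% of 12158 genes that were higher without overlap. Zfp51 did overlap, at 41.5 to 48.5 CPM in the low and 46.9 to 52.6 CPM in the high Trim28 libraries. No test was made on this split, since it regroups libraries against their labels by a measured level. The 4 libraries were chosen by that level too, but are compared by label.

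Within a library, Zfp948 kept a nearly fixed ratio to Zfp53. The ratio of their counts was 0.156, 0.155 and 0.147 in deficient 1, 2 and 3, and 0.148, 0.149 and 0.143 in sufficient 1, 2 and 3, although both genes spanned more than 3-fold. Zfp52 did not, with ratios to Zfp53 of 0.382, 0.358 and 0.492 in the deficient and 0.447, 0.477 and 0.339 in the sufficient libraries, lower wherever Zfp53 was high. The summed level of the 5 members was 544, 537 and 207 CPM in deficient 1, 2 and 3, against 201, 212 and 527 CPM in sufficient 1, 2 and 3. Zfp51 made up 7.94%, 7.73% and 22.7% of that sum in the deficient and 25.1%, 24.8% and 9.21% in the sufficient libraries. Zfp53 made up 57.8%, 58.6% and 42.9% in the deficient and 41.9%, 41.4% and 58.4% in the sufficient libraries.

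Per kilobase of exon the order of the members changed between the library sets. In deficient 1 and 2 the levels per kilobase were 102 and 103 CPM for Zfp53, 37.9 and 35.5 for Zfp52, 18.5 and 18.4 for Zfp948, 16.8 and 16.1 for Zfp51, and 6.16 and 6.92 for Zfp54. In sufficient 1 and 2 they were 27.5 and 28.6 CPM for Zfp53, 19.6 and 20.4 for Zfp51, 11.9 and 13.2 for Zfp52, 5.70 and 5.86 for Zfp54, and 4.70 and 4.93 for Zfp948. Zfp52 and Zfp948 thus stood above Zfp51 in the first pair of libraries and below it in the second. In neither pair did neighbours in the order overlap. With deficient 3 added (29.0 CPM per kilobase for Zfp53, 18.2 for Zfp51, 13.8 for Zfp52, 5.2 for Zfp54 and 4.90 for Zfp948), only Zfp51 and Zfp54 held ranges apart among neighbours in the deficient order. Sufficient 3 had 100 CPM per kilobase for Zfp53, 33.0 for Zfp52, 18.9 for Zfp51, 16.5 for Zfp948 and 7.99 for Zfp54.

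**Figure D2:**
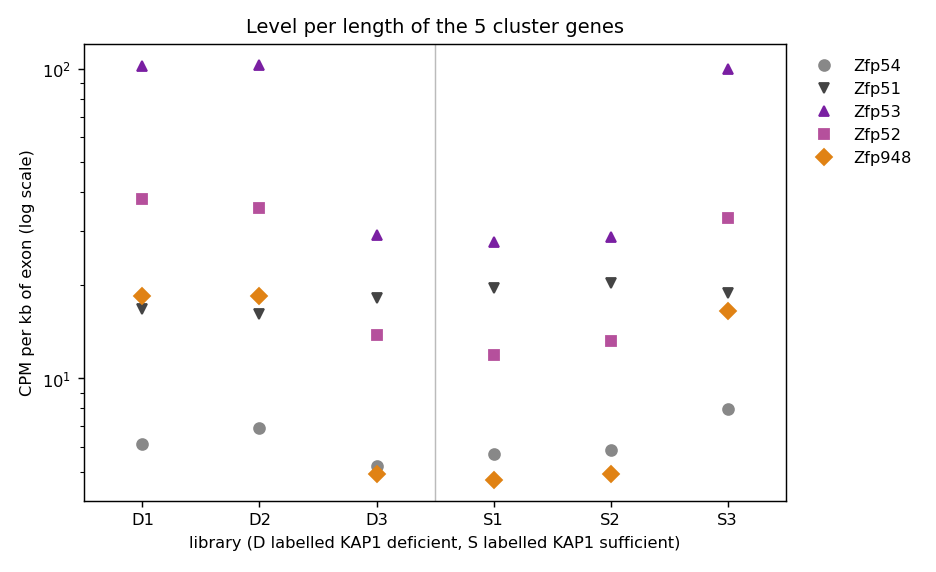
CPM per kilobase of exon of each member in each library, on a logarithmic axis, with libraries labelled deficient (D1 to D3) left of those labelled sufficient (S1 to S3) and 1 point for each gene and library. Zfp53 is on top in every library, at 27.5 CPM per kilobase or more, while Zfp52 and Zfp948 lie above Zfp51 in D1 and D2 and below it in D3, S1 and S2.

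The authors' deposited table, in which a positive log2 fold change means higher in sufficient cells, gives Zfp53 as -1.75 ± 0.06, Zfp52 as -1.29 ± 0.08 and Zfp948 as -1.51 ± 0.10 (SE). In the same deposited table Zfp54 is at -0.25 ± 0.11, Zfp51 at 0.12 ± 0.09 and Trim28 at 3.11 ± 0.08. Neither the labels nor the headers say which libraries entered that comparison. In the fits here, taken as deficient over sufficient, Trim28 was at -3.54 ± 0.08 (SE) over the 4 libraries. Over all 6 by label it was at -0.90 ± 1.46. The deposited Trim28 value, with its sign turned, is thus unlike that of all 6 by label. Once the sign is turned, the directions of all 5 members match those over the 4 libraries.

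Of 50 other genes within 1 Mb of the cluster, 33 had no count in any library and 16 were tested. With edgeR's quasi-likelihood test and Benjamini-Hochberg adjustment, 3 rose (9.96% of all genes rose) and 1 fell (7.39% of all genes fell) in deficient against sufficient cells over the 4 libraries. Together these were 25.0% of those tested, beside 17.4% of all genes, with a median log2 fold change of 0.12. Over all 6 libraries by label 0 were called by edgeR or by DESeq2, beside 0.0165% of all genes, and 2 had an unadjusted p under 0.05. The genes that rose were the zinc finger genes Zfp758 (log2 fold change 0.73 ± 0.12, adjusted p = 0.000611), Zfp942 (0.43 ± 0.07, adjusted p = 0.000747) and Zfp983 (0.47 ± 0.15, adjusted p = 0.0486). The one that fell was the processed pseudogene Gm5145 (-0.78 ± 0.25, adjusted p = 0.0409). Zfp983 lost its call without deficient 1 (adjusted p = 0.411), sufficient 1 (0.113) or sufficient 2 (0.104), and Gm5145 without deficient 2 (0.247), sufficient 1 (0.200) or sufficient 2 (0.0508). Zfp983 also lost it with DESeq2-type scaling (0.0501) or upper-quartile scaling (0.0547), and DESeq2 called neither (0.336 for Zfp983 and 0.343 for Gm5145). Zfp677, the nearest tested gene to the left at 114 kb from the cluster's centre, had 30.9, 28.9 and 29.7 CPM in deficient 1, 2 and 3 and 30.5, 29.3 and 29.6 CPM in sufficient 1, 2 and 3. Its log2 fold change was 0.01 ± 0.09 over the 4 libraries. DESeq2 called 2 neighbours in those libraries, edgeR called 2 without sufficient 1 or sufficient 2, and by label edgeR called 2 without sufficient 3.

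**Figure D3:**
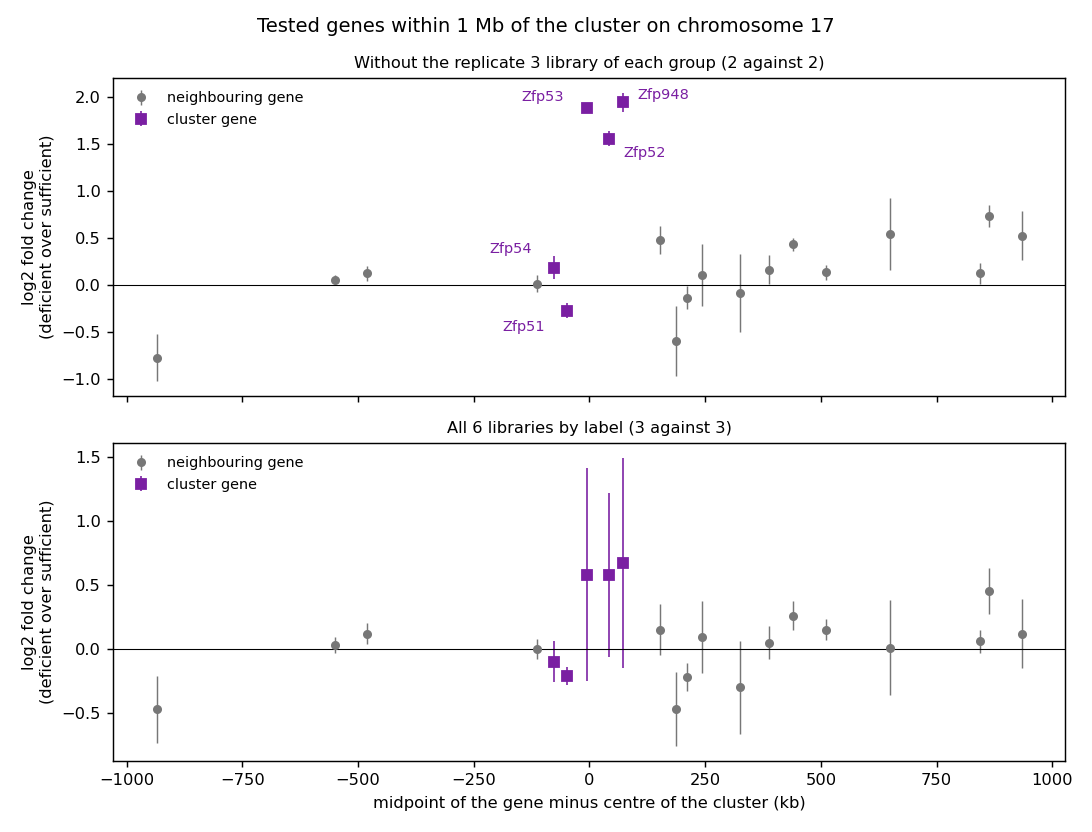
Log2 fold change, deficient over sufficient, of the members and of the tested genes within 1 Mb against distance from the centre of the cluster in kilobases, over the 4 libraries (upper panel) and all 6 by label (lower panel), with bars for the standard error. In the upper panel Zfp53, Zfp52 and Zfp948 lie at 1.55 to 1.94 and the highest neighbour, Zfp758, at 0.73, and in the lower panel the same members lie at 0.58 to 0.67 with wide bars.

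Across the whole chromosome, 33 other Zfp genes were in the table and 31 were tested. In the 4 libraries 7 rose and 0 fell (22.6%, beside 17.4% of all genes called and 9.96% higher), with a median log2 fold change of 0.17. Over all 6 by label 0 were called by edgeR or DESeq2, and 4 had an unadjusted p under 0.05. Zfp758, Zfp942 and Zfp983 above are among the 7. The others were Zfp945 (0.44 ± 0.08, adjusted p = 0.00148), Zfp811 (2.04 ± 0.53, adjusted p = 0.0160), Zfp472 (0.42 ± 0.11, adjusted p = 0.0173) and Zfp81 (0.29 ± 0.09, adjusted p = 0.0454). Zfp811 rested on 3 counts in sufficient 1 and 2 each, where a fitted fold change depends on the prior count. It lost its call whichever of the 4 libraries was left out (adjusted p = 0.0556 to 0.134), Zfp472 without deficient 1 (0.0705) or sufficient 1 (0.108), and Zfp81 without deficient 1 (0.448), sufficient 1 (0.103) or sufficient 2 (0.134). Zfp81 also lost it with upper-quartile scaling (0.0612), and DESeq2 called neither Zfp81 (0.366) nor Zfp472 (0.203). Zfp758, Zfp942 and Zfp945 kept theirs whichever of the 4 libraries was left out. Among these Zfp genes DESeq2 called 3, edgeR called 3 without deficient 1 and 4 without sufficient 1, and by label edgeR called 5 without sufficient 3.

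These 3 genes differed from the 3 raised members in which libraries were high. Zfp942 had 69.9, 67.8 and 66.9 CPM in deficient 1, 2 and 3, against 51.5, 51.0 and 68.2 CPM in sufficient 1, 2 and 3. Zfp945 had 55.2, 50.1 and 51.4 CPM in the deficient, against 39.0, 39.0 and 52.6 CPM in the sufficient libraries, and Zfp758 had 32.4, 39.1 and 32.0 CPM against 23.6, 19.8 and 32.3 CPM. For all 3, deficient 3 sat beside deficient 1 and 2 and only sufficient 1 and 2 stood apart. For Zfp53, Zfp52 and Zfp948, deficient 3 had the low level instead. The contrast did not hold for every other Zfp gene that rose. Zfp983 had 16.9, 13.3 and 10.6 CPM in deficient 1, 2 and 3. It had 10.8 CPM in sufficient 1, a close level in sufficient 2, and 14.9 CPM in sufficient 3. Its deficient 3 level was thus low, like that of the 3 raised members. Zfp811, Zfp472 and Zfp81 were not low in deficient 3, at 1.27, 28.2 and 39.2 CPM, against 1.21, 26.2 and 35.3 CPM in deficient 2.

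**Figure D4:**
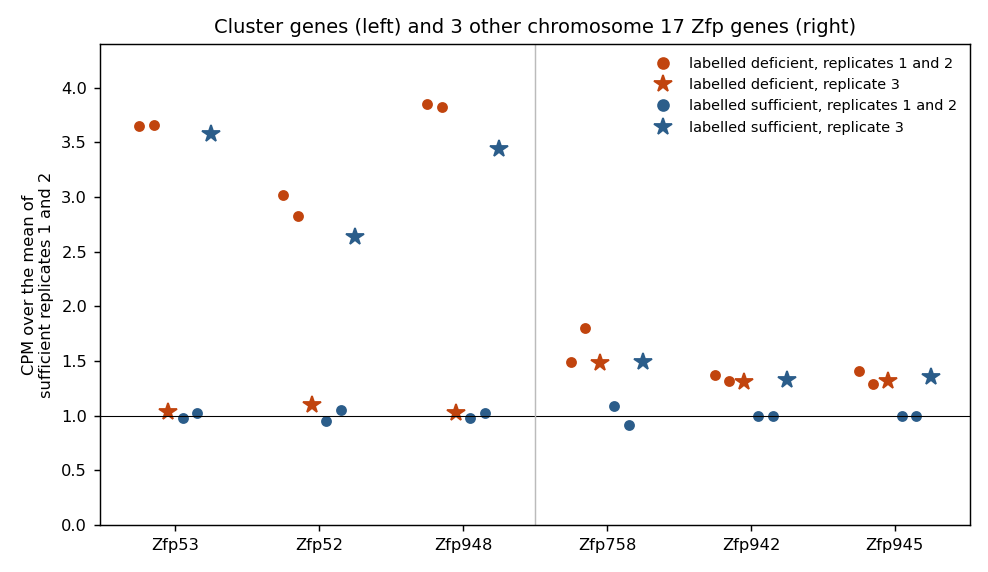
CPM in each library divided by the mean of sufficient 1 and 2, on a linear axis from 0, with stars for the replicate 3 libraries and deficient libraries left of sufficient ones, for Zfp53, Zfp52 and Zfp948 and for the other chromosome 17 genes Zfp758, Zfp942 and Zfp945. In deficient 3 the members are at 1.02 to 1.10 and the other genes at 1.31 to 1.48.

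The mRNA of KAP1 pathway genes was read from a list of 29 genes without Trim28. It was written from general knowledge of KAP1 and of histone methylation, but with earlier results of these data known. The share of the list that was called may therefore owe something to that choice. Not all of its genes encode partners of KAP1, since genes of DNA methylation such as Dnmt1 are in it. Over the 4 libraries 9 rose and 5 fell (48.3%, beside 17.4% of all genes called, 9.96% higher and 7.39% lower). The median log2 fold change was 0.07, and over all 6 by label 0 were called by edgeR or DESeq2, with 4 at an unadjusted p under 0.05. Setdb1, whose product methylates histone H3 in this pathway, had 286, 287 and 121 CPM in deficient 1, 2 and 3, against 118, 117 and 291 CPM in sufficient 1, 2 and 3 (log2 fold change over the 4 libraries 1.29 ± 0.05, adjusted p = 2.72e-10). Morc3, a chromatin ATPase, had 335, 313 and 153 CPM against 144, 147 and 308 CPM (1.16 ± 0.05, adjusted p = 1.74e-09). Trim24, a relative of Trim28, had 425, 341 and 88.5 CPM against 89.5, 83.2 and 387 CPM (2.15 ± 0.12, adjusted p = 0.000101). All 3 had the high and low libraries of Zfp53. Rbbp4, a histone chaperone, rose by 0.31 ± 0.05 on the log2 scale (adjusted p = 0.000578). Fam208a, of the HUSH silencing complex, rose by 0.29 ± 0.05 (adjusted p = 0.00140) and the remodeller Atrx by 0.28 ± 0.06 (adjusted p = 0.00281). These genes did not have the libraries of Zfp53, since deficient 3 was not low. Rbbp4, Fam208a and Atrx had 253, 207 and 660 CPM in deficient 3, against 255, 194 and 674 CPM in deficient 2. In sufficient 1 they had 204, 161 and 580 CPM, and in sufficient 3 238, 196 and 692 CPM. In this list DESeq2 called 6 over the 4 libraries, all of them higher, so that it called 0 of the 5 that fell. Without sufficient 2 edgeR called 8, of which 7 were higher, and by label edgeR called 4 without sufficient 3.

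Likeness across the 6 libraries was taken for Zfp53, Zfp52 and Zfp948, since Zfp54 and Zfp51 varied by less than 1 on the log2 scale. It was the root mean square difference of log2 CPM after each gene's mean was subtracted. The search covered tested genes with a symbol outside the cluster, with predicted Gm and Rik genes left out. For Zfp53 the nearest were Acadm (chromosome 3, a fatty acid dehydrogenase) at 0.0724, Igsf23 (chromosome 7) at 0.110 and Klhl6 (chromosome 16) at 0.126, while Zfp948 was nearer than all of them at 0.0437. For Zfp948 they were Acadm at 0.0866, Klhl6 at 0.111 and Klrb1c at 0.120. For Zfp52 they were Mindy3 at 0.102, Sh3bgrl2 at 0.102 and Man1a at 0.113, all nearer than Zfp53 at 0.208. Klrb1c, also one of the natural killer cell markers, had 10.8, 9.64 and 2.18 CPM in deficient 1, 2 and 3, against 2.77, 2.55 and 8.74 CPM in sufficient 1, 2 and 3, while Ncr1, the other one, had 0 counts throughout. The summed level of these markers was 2.18 to 10.8 CPM in the deficient and 2.55 to 8.74 CPM in the sufficient libraries, and its part in the levels of the members was not tested. In bulk RNA, fewer cells of a type and less RNA per cell cannot be told apart.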

How the data were processed

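RNA of 6 mouse Treg libraries was compared, 3 labelled KAP1 deficient and 3 KAP1 sufficient. The submitters' processing notes name the mm10 build with DESeq2, HTSeq 0.7.2 and TopHat2 2.1.1, without roles. Neither the strand setting nor the annotation release is stated. The values deposited by the authors are raw counts, 1 row for each Ensembl gene. A table deposited by the authors holds a mean signal, log2 fold changes, test scores and p-values.

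Counts were fitted with edgeR 4.0.16 (R 4.3.3) (quasi-likelihood, robust, TMM scaling, filterByExpr) with Benjamini-Hochberg adjustment at 0.05 over all genes; the scripts were tested on simulated data. SEs came from the fold change and F. CPM used library totals without TMM factors. Symbols matched 32919 rows, and the 5072 others held 0.603% of counts. Positions were from GENCODE M21. No library was counted as a duplicate (lowest pairwise chi-square per degree of freedom 2.43, deficient 1 with sufficient 3). Promoters were aligned with Biopython 1.88. Alternatives were DESeq2 1.42.0, other scaling, no filter, a replicate block, other windows and leaving out libraries.

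The members and lists were chosen with earlier results of these data known. No p is given for a member. Named genes were the members, Trim28, the markers, called neighbours (at most 10), called Zfp genes (at most 8) and called KAP1 pathway genes (at most 6) by adjusted p, and the 3 genes most like each member that spanned at least 1 on the log2 scale (prior count 2). Same-numbered libraries did not deviate together (correlations -0.365, -0.292 and -0.613). The deviations were from label-group means, and replicate 3 of both groups went against the label in Trim28. Genes that follow Trim28 give negative values by that alone, so the correlations cannot show whether libraries were paired.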

Additional observations from a re-analysis of the deposited data

How the results depend on the processing

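Over the 4 libraries, the members' log2 fold changes under other scaling factors, no filter, DESeq2 or a left-out library were 1.84 to 1.90 for Zfp53, 1.49 to 1.62 for Zfp52, 1.91 to 1.97 for Zfp948, 0.10 to 0.26 for Zfp54 and -0.31 to -0.24 for Zfp51. Upper-quartile scaling gave 1.84 for Zfp53 and 1.91 for Zfp948. Leaving out 1 of the 4 libraries gave 1.85 to 1.90 for Zfp53 and 0.10 (without deficient 2) to 0.26 for Zfp54, the lone library of a group being assumed to vary like the others. In all 6 libraries by label, leaving out both replicate 3 libraries gave 1.88 for Zfp53, 1.55 for Zfp52, 1.94 for Zfp948, 0.18 for Zfp54 and -0.28 for Zfp51, and 4 calls among neighbours, 7 among other Zfp genes and 14 in the KAP1 list. Leaving out 1 of the 6 gave 0 to 2, 0 to 5 and 0 to 4 calls, the highest without sufficient 3. The sign of Zfp54 there changed with the libraries left out, from -0.20 to 0.07. Over the 4 libraries DESeq2 called 2, 3 and 6, a 0.5 Mb window held 2 called neighbours, and leaving out 1 library gave 2 to 3, 3 to 8 and 8 to 13. Over all genes DESeq2 called 935 of the 4-library comparison against 2114 by edgeR, and by label edgeR called 2, against 807 without sufficient 3. The cause was not tested.

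The libraries share only a replicate number. With the number as a replicate block, all 6 libraries gave 0 calls in each list and over all genes, with 0.77 for Zfp53, 0.66 for Zfp52, 0.78 for Zfp948, -0.09 for Zfp54 and -0.21 for Zfp51. The 4 libraries gave 4, 8 and 15 calls in the lists and 2359 over all genes.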

Other observations

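The 5 genes of the KAP1 list that fell over the 4 libraries, named after their values were seen, were Dnmt1 (log2 fold change -0.21 ± 0.05), the maintenance methyltransferase, Uhrf1 (-0.36 ± 0.10), which brings it to DNA, Hells (-0.39 ± 0.11), a remodeller needed for methylation, Dnmt3a (-0.16 ± 0.05), which methylates new sites, and the histone chaperone Daxx (-0.22 ± 0.06). Over all 6 libraries by label none was called by edgeR or DESeq2, and over the 4 libraries DESeq2 called none of them. Without sufficient 2, edgeR called 1 gene of the list lower.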
